A study of Mus musculus with 13 samples.

Results

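The genes described here are the matrix metalloproteinases (Mmp), the ADAMTS proteases (Adamts), the ADAMTS-like proteins (Adamtsl) and the tissue inhibitors of metalloproteinases (Timp). They were taken by name, as every gene of the 4 group tables called Mmp, Adamts or Timp with a number, or beginning with Adamtsl. This gave 46 genes. Of these, 45 were among the 21056 genes listed in all 4 tables, namely 4 TIMPs, 17 MMPs, 19 ADAMTS and 5 ADAMTS-like genes. A filter on low counts passed 42 of them, as part of 16940 genes tested. Adamts12, Adamts19 and Mmp8 did not pass it, and Mmp27 was listed for the tMCAO groups only, with 0 or 1 count per library.

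MMPs are zinc-dependent proteases that are made as inactive precursors, are secreted or anchored in the membrane, and cleave collagens, laminins and other matrix proteins. ADAMTS proteases carry thrombospondin repeats, and several of them cleave the chondroitin sulphate proteoglycans that fill the space between brain cells, while ADAMTS-like proteins share the repeats and lack the protease domain. TIMPs bind the active site of these enzymes and block them. In the ischaemic brain the family is known for cleavage of the basement membrane of vessels and for later remodelling of the matrix.

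RNA from brains of male mice was sequenced in 13 libraries after the middle cerebral artery was blocked for 60 min and reopened (tMCAO) or after a sham operation, with microglia present (CON) or depleted (DE). All mice carried CX3CR1creER/+, a tamoxifen-inducible Cre recombinase at a gene used by microglia and other mononuclear phagocytes, together with a Cre-dependent diphtheria toxin receptor labelled Rosa26iDTR/+, and all received tamoxifen. The sham_MG_DE (n = 4) and tMCAO_MG_DE (n = 2) mice then received diphtheria toxin at 50 ng per g body weight on 3 days, starting 30 days later, and the sham_MG_CON (n = 3) and tMCAO_MG_CON (n = 4) mice received saline. The labels place tamoxifen at 7 to 8 weeks of age and surgery at 6 to 8 weeks, which cannot both hold. The digits in the Rosa label differ between libraries and were read as 1 genotype. When after reperfusion the brains were taken, and which region was used, was not given in the sources used here. Each library has its own animal code and was counted as 1 animal.

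Library totals ran from 16239763 to 22080367 counts. Levels are given as CPM, counts scaled to the TMM-adjusted size of each library, or as FPKM where genes of different length are set side by side. The microglial receptor Csf1r was lower in every depleted library, with a log2 fold change of -3.22 in sham and -3.59 in tMCAO mice, and the summed level of 10 microglial markers was 283 to 328 CPM in sham_MG_CON, 29.2 to 67.3 in sham_MG_DE, 308 to 411 in tMCAO_MG_CON and 38.4 to 41.1 in tMCAO_MG_DE. Some libraries stood apart from their groups. The treatment entry of tMCAO_MG_CON replicate 4 reads sham surgery, against its title. The summed astrocyte markers were 2077 CPM in sham_MG_DE replicate 2 and 2692 CPM in tMCAO_MG_DE replicate 1, against 3832 to 5274 CPM elsewhere. The neutrophil gene S100a9 was at 15.6 CPM in sham_MG_CON replicate 2 and 16.5 CPM in sham_MG_DE replicate 3, against 0.429 to 6.18 CPM elsewhere. In bulk RNA, fewer cells of a type and less RNA per cell cannot be told apart.

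Expression of the family was carried by a few genes, most of which were not called in any comparison. Per transcript length and averaged over the 13 libraries, Timp2, a TIMP that also takes part in the activation of pro-MMP2, stood highest at 60.6 FPKM (range 49.6 to 71.7). Mmp17, a membrane-type MMP held by a lipid anchor, followed at 32.6 FPKM (27.4 to 38.2). Timp3, the TIMP that binds to the matrix, had 12.05 FPKM (10.7 to 14.2), and Mmp24, a membrane-type MMP of neurons, 8.84 FPKM (7.13 to 10.1). The ranges of these first 4 genes did not overlap. Then came Timp4 at 5.89, Adamts1 at 5.24, Adamts4 at 4.03 and Mmp15 at 3.08 FPKM, whose ranges did overlap. In all, 3 members averaged at least 10 FPKM, 14 lay between 1 and 10, and 28 lay under 1 FPKM. Timp2 made up 70.3% to 80.1% of the summed TIMP level and Mmp17 54.6% to 67.8% of the summed MMP level, depending on the library.

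**Figure D1:**
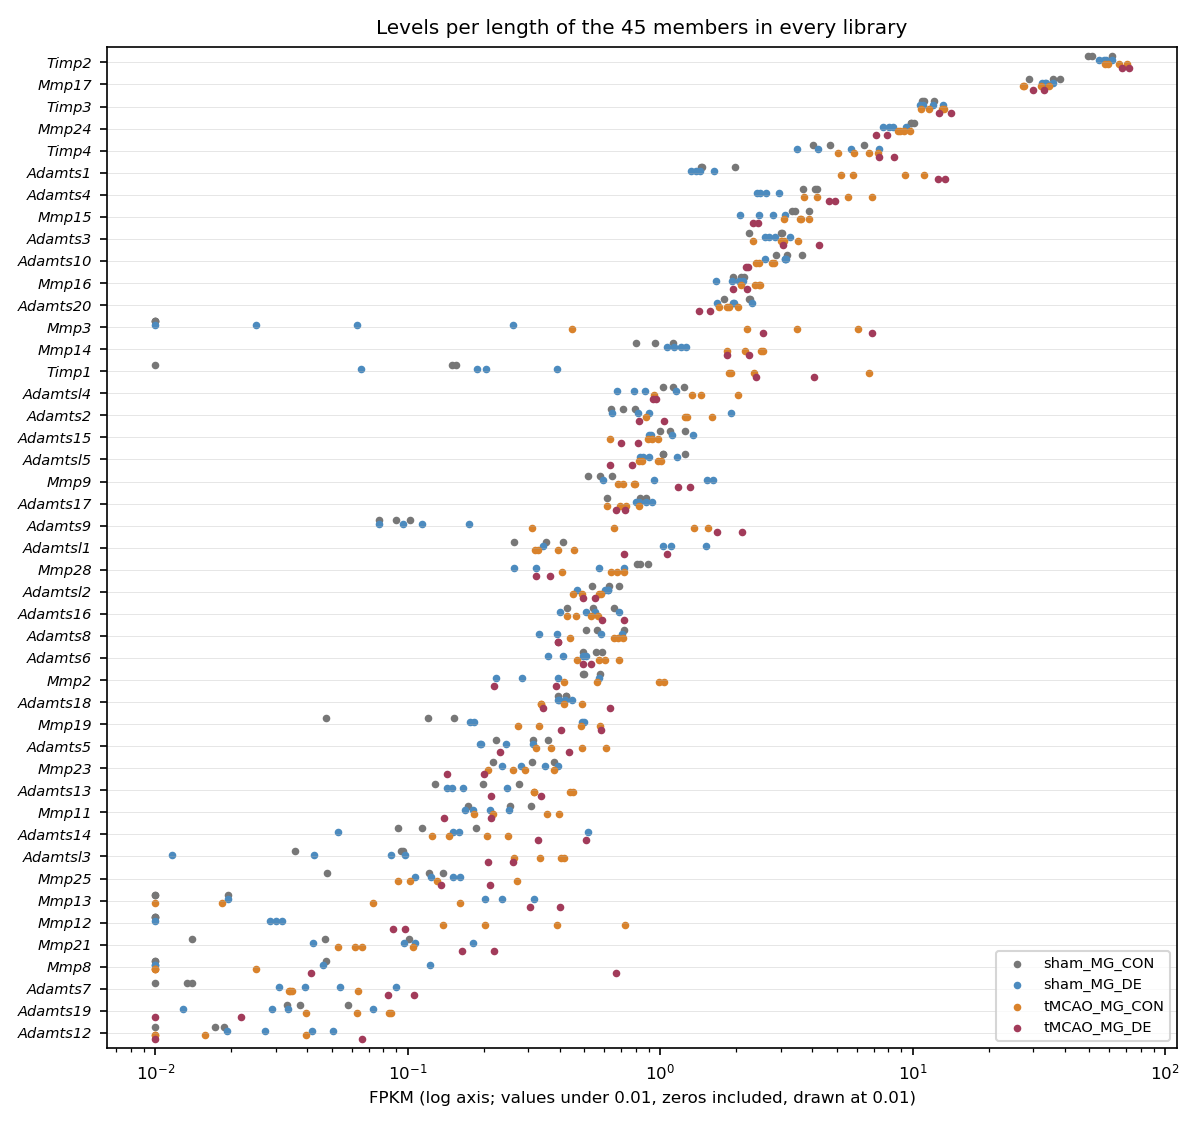
Levels per length of the 45 members listed in all tables, in FPKM on a log axis, with 1 point per library coloured by group, ordered by the mean over 13 libraries; values under 0.01 are drawn at 0.01. Timp2, Mmp17, Timp3 and Mmp24 lie in narrow bands at the top in every group, while the tMCAO points of Adamts1, Mmp3, Timp1, Adamts9 and Mmp12 lie to the right of their sham points.

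Several members that moved are neighbours in the genome. Mmp13, Mmp12, Mmp3, Mmp8 and Mmp27 lie in that order on the plus strand of chromosome 9, from 7272514 to 7581885 on the mouse build GRCm38, a span of 309372 bp. Because MMP genes of this cluster are textbook targets of the AP-1 transcription factors, the 250 bases before each start were searched for the AP-1 motif TGANTCA, which reads the same on both strands. It was present in 6.749% of the 32851 mouse promoters in the RefSeq table (build GRCm38.p6), or, counted by gene, in 7.819% of 27025 genes. Of the 31 members for which the table has a promoter, 3 had it, or 9.677%, a share near that of all genes. The 3 members were Mmp3, Mmp12 and Mmp13, all in this cluster. In Mmp3 the match was 46 bases before the start, in Mmp13 35 bases, and in Mmp12 44 bases before the second of its starts, while the first start had no match. Mmp8 and Mmp27, in the same cluster, had none, nor had Timp1, Adamts1, Adamts9, Mmp14 or Adamtsl3. A match is one of letters and says nothing of binding. The 100 bases before the start of each gene of the cluster are shown to let the positions be compared, with the motif in capitals. They are all on the plus strand of chromosome 9, at chr9:7272414-7272513 for Mmp13, chr9:7347274-7347373 for Mmp12, chr9:7445722-7445821 for Mmp3, chr9:7558329-7558428 for Mmp8 and chr9:7571296-7571395 for Mmp27.
Mmp13: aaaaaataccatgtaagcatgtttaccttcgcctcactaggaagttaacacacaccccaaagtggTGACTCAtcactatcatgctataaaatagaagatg
Mmp12, second start: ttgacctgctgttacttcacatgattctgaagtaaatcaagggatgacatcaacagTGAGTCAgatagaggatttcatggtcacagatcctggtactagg
Mmp3: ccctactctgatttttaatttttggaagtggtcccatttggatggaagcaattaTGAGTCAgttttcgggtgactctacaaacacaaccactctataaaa
Mmp8: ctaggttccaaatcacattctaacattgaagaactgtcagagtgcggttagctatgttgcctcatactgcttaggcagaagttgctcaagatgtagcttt
Mmp27: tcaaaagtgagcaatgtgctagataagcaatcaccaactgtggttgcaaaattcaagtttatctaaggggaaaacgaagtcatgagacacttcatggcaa

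After tMCAO with microglia present, a small set of proteases and 1 inhibitor rose, several of them from near 0. With edgeR's quasi-likelihood test at an adjusted p under 0.05, 9 of the 42 members tested passed, which is 21.4% of the members against 8.44% of all genes tested. The 8 higher ones stood against 5.14% of all genes and the 1 lower against 3.31%. Higher were Timp1, Mmp3, Mmp12, Mmp14, Mmp19, Adamts1, Adamts9 and Adamtsl3, and lower was Adamts10. The median log2 change was 0.18 over the members and 0.02 over all genes. By class, 1 of 4 TIMPs, 2 of 3 stromelysins and elastases, 1 of 6 membrane-type MMPs and 2 of 7 proteoglycan-cleaving ADAMTS were higher, and neither gelatinase passed.

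Among the inhibitors, Timp1, the secreted TIMP that is induced by cytokines, was at 0.215, 0 and 0.226 CPM in sham_MG_CON replicates 1 to 3 and at 2.54, 3.16, 8.94 and 2.57 CPM in tMCAO_MG_CON replicates 1 to 4. The groups did not overlap, and replicate 3 stood well above the other tMCAO libraries. The log2 fold change was 4.77 ± 0.73 (standard error; edgeR adjusted p = 0.0022). The other TIMPs did not pass the test: Timp2 averaged 230 ± 27.7 and 253 ± 27.5 CPM (SD), Timp3 107 ± 7.47 and 107 ± 10.9 CPM, and Timp4, an inhibitor with much expression in brain and heart, 32.6 ± 7.64 and 37.8 ± 6.06 CPM in sham_MG_CON (n = 3) and tMCAO_MG_CON (n = 4). Their log2 changes were 0.14 ± 0.10, 0.01 ± 0.10 and 0.22 ± 0.22.

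Mmp3 and Mmp12 were almost silent without stroke. Mmp3, stromelysin 1, which cleaves matrix proteins and activates other pro-MMPs, had 0 counts in all sham_MG_CON libraries and 14, 127, 178 and 81 counts, or 0.772, 6.09, 10.5 and 3.93 CPM, in tMCAO_MG_CON. Set against a floor of 3 counts per library, Mmp3 was at least 31.3-fold higher (edgeR adjusted p = 0.0078), with the lowest value in replicate 1. Mmp12, macrophage elastase, had 0, 1 and 1 counts in sham_MG_CON and 35, 79, 117 and 28 counts, or 1.93, 3.79, 6.88 and 1.36 CPM, in tMCAO_MG_CON. The ratio of its levels was 89.7, with a 95% counting interval of 24.6 to 745 that covers counting error only (edgeR adjusted p = 0.00098). Every tMCAO library was above every sham library for both genes, tMCAO_MG_CON replicate 4 included.

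Mmp14, the membrane-type MMP that activates pro-MMP2 at the cell surface, was at 5.69, 6.64 and 4.86 CPM in sham_MG_CON and at 14.0, 12.1, 14.1 and 10.5 CPM in tMCAO_MG_CON. It rose by 1.14 ± 0.15 on the log2 scale (edgeR adjusted p = 0.00066), and the groups did not overlap. Mmp19, a soluble MMP, rose from 0.536, 0.419 and 0.169 CPM to 1.60, 0.911, 1.88 and 1.12 CPM (1.84 ± 0.50, edgeR adjusted p = 0.040). That call ended without any 1 of the sham_MG_CON libraries (edgeR adjusted p = 0.070, 0.087 and 0.16 without replicates 1, 2 and 3), without tMCAO_MG_CON replicate 1 (0.078), 3 (0.096) or 4 (0.051), and without either tMCAO_MG_DE library (0.053 for each), which enter through the shared estimate of spread. The gelatinases, which are often measured after stroke, did not pass: Mmp2 averaged 1.64 ± 0.13 and 2.21 ± 0.89 CPM (log2 change 0.43 ± 0.37) and Mmp9 2.37 ± 0.24 and 2.85 ± 0.19 CPM (0.26 ± 0.28). For Mmp9 the 4 tMCAO_MG_CON libraries, at 2.67 to 3.02 CPM, lay just above the 3 sham_MG_CON libraries, at 2.15 to 2.63 CPM.

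Adamts1 and Adamts9 carried the response of the proteoglycan-cleaving ADAMTS. Adamts1 was at 9.55, 12.8 and 9.60 CPM in sham_MG_CON and at 31.6, 57.1, 67.2 and 36.4 CPM in tMCAO_MG_CON (log2 fold change 2.17 ± 0.23, edgeR adjusted p = 0.00017). Adamts9, which with Adamts1 cleaves versican, was at 1.39, 1.62 and 1.86 CPM and then at 5.24, 23.3, 26.0 and 11.4 CPM (3.34 ± 0.50, edgeR adjusted p = 0.0018). The order of the tMCAO_MG_CON libraries was the same for both genes and for Mmp3, with replicate 1 lowest and replicate 3 highest. Adamts4, an aggrecanase, averaged 21.2 ± 1.28 and 25.4 ± 6.98 CPM and did not pass (0.26 ± 0.17), nor did Adamts5, the other main aggrecanase, at 2.504 ± 0.589 and 3.50 ± 0.96 CPM (0.47 ± 0.29). Adamts5 lies next to Adamts1 on chromosome 16, with 53059 bp between them.

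Adamtsl3, an ADAMTS-like glycoprotein, rose from 0.966, 0.359 and 0.960 CPM to 2.48, 3.16, 3.88 and 3.93 CPM without overlap (2.12 ± 0.45, edgeR adjusted p = 0.013). Adamts10, which binds fibrillin microfibrils, fell from 34.5, 39.1 and 31.6 CPM to 24.8, 28.8, 24.0 and 28.9 CPM (-0.40 ± 0.10, edgeR adjusted p = 0.034). The call for Adamts10 ended without sham_MG_CON replicate 1 (edgeR adjusted p = 0.082) or 2 (0.13) and without tMCAO_MG_CON replicate 1 (0.064) or 3 (0.075). It also ended with limma on FPKM (adjusted p = 0.11), with only the compared groups fitted in edgeR (0.051) and with the replicate block in edgeR (0.058). The replicate block also ended the call for Mmp19. Adamts13, the protease of von Willebrand factor, averaged 1.13 ± 0.42 and 2.02 ± 0.43 CPM and did not pass (0.83 ± 0.31, edgeR adjusted p = 0.13). The calls for Adamts1, Adamts9, Timp1, Mmp3, Mmp12, Mmp14 and Adamtsl3 held in each of the 20 alternatives run, tMCAO_MG_CON replicate 4 left out among them.

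Markers of other cells moved in the same comparison. The summed level of 8 fibroblast and meningeal markers was 78.9 to 96.9 CPM in sham_MG_CON and 144 to 191 CPM in tMCAO_MG_CON, with 5 of the 8 higher, and that of 10 markers of border macrophages and monocytes was 6.55 to 9.69 and 13.7 to 26.0 CPM, with 3 of the 8 tested higher. Markers of pericytes and smooth muscle were higher in 3 of 7, astrocyte markers in 3 of 8, endothelial markers in 2 of 8 and microglial markers in 2 of 10, while neuronal and oligodendrocyte markers were each lower in 2 of 8. The summed levels of the pericyte, astrocyte, endothelial and oligodendrocyte markers overlapped between the groups, and those of the neuronal markers did not, at 8822 to 9259 CPM in sham_MG_CON and 7158 to 7811 CPM in tMCAO_MG_CON. Of the tMCAO_MG_CON libraries, replicate 3 had the highest Timp1, Mmp3 and Mmp12. It also had the highest sums of fibroblast, border macrophage, microglial, endothelial, oligodendrocyte, neutrophil and choroid plexus markers. Its sums of astrocyte, pericyte and neuronal markers were not the highest. Neutrophil markers summed to 1.29 to 35.5 CPM in sham_MG_CON, with Cxcr2 at 0, and to 1.36 to 3.88 CPM in tMCAO_MG_CON, with Ly6g at 0. Of the 8 tested, 0 were called. The part of these cells in the levels of the members was not tested.

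**Figure D2:**
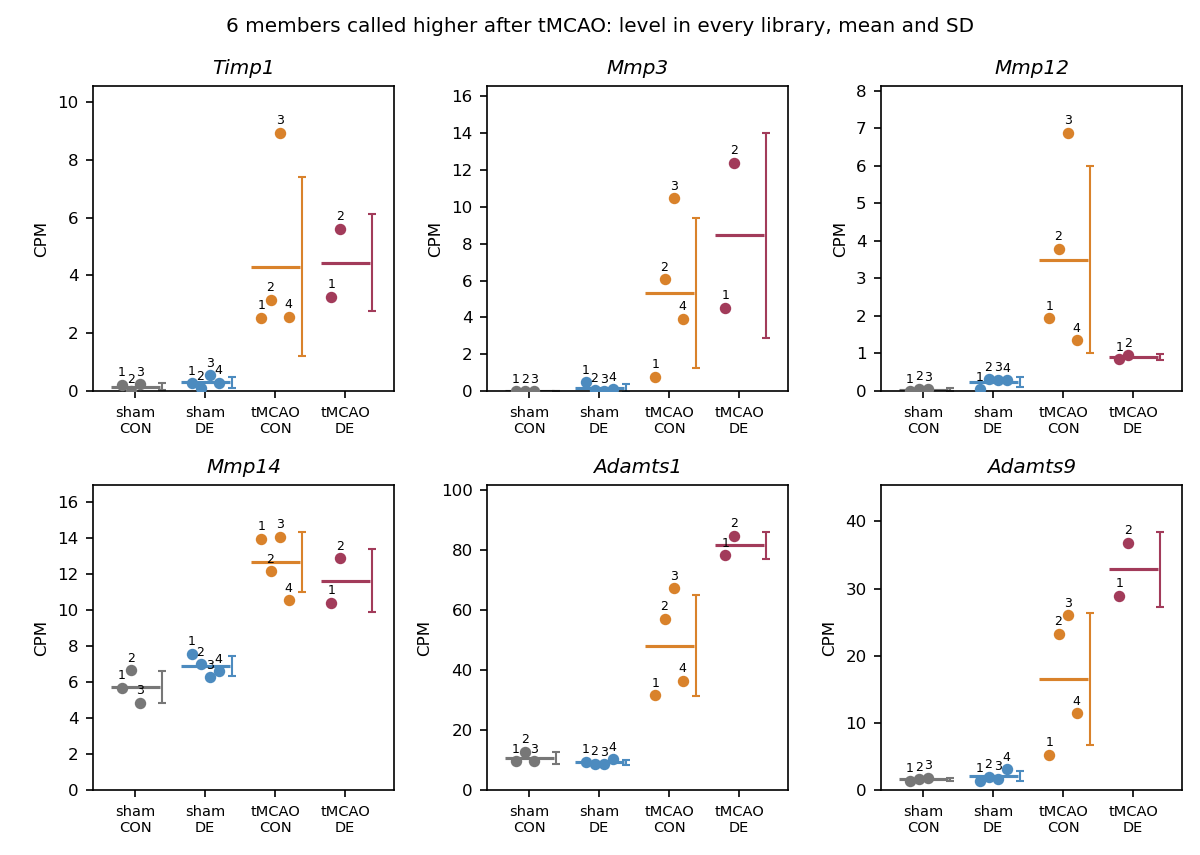
Level in CPM of Timp1, Mmp3, Mmp12, Mmp14, Adamts1 and Adamts9 in each library, labelled by replicate, with lines for the group mean and bars for the SD; CON is saline and DE diphtheria toxin. The tMCAO libraries lie above the sham libraries of the same microglial state in all 6 panels, and Mmp12 is at 0.854 and 0.962 CPM in tMCAO_MG_DE against 1.36 to 6.88 CPM in tMCAO_MG_CON.

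When the occlusion was made in mice depleted of microglia, largely the same members moved. Of the 42 tested, 8 passed, or 19.05% against 12.4% of all genes in the comparison of tMCAO_MG_DE (n = 2) with sham_MG_DE (n = 4). The 7 higher ones, against 6.59% of all genes, were Timp1, Mmp3, Mmp14, Adamts1, Adamts4, Adamts9 and Adamtsl3, and the 1 lower, against 5.84%, was Adamts10. The median log2 change was 0.18 over the members and 0.00 over all genes. The 2 stroke comparisons use different libraries throughout, and 7 genes passed in both with the same sign. They are 77.8% of the first list and 87.5% of the second. The overlap of calls over all genes is not given here, so these shares have no background to be read against.

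Adamts1 was at 9.41, 8.82, 8.53 and 10.4 CPM in sham_MG_DE and at 78.3 and 84.8 CPM in tMCAO_MG_DE, above every tMCAO_MG_CON library (log2 fold change 3.13 ± 0.24, edgeR adjusted p = 1.5e-05). Adamts9 was at 1.41, 2.00, 1.71 and 3.08 CPM and then at 28.9 and 36.9 CPM (4.003 ± 0.471, edgeR adjusted p = 0.00043). Timp1 was at 0.270, 0.0909, 0.549 and 0.285 CPM and then at 3.26 and 5.62 CPM (3.92 ± 0.64, edgeR adjusted p = 0.0028). For these 3 genes the calls held in all 20 alternatives.

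All calls of this comparison rested on the same 2 occluded animals. The remaining calls held in fewer of the alternatives than those of Adamts1, Adamts9 and Timp1. Mmp3 had 9, 1, 0 and 2 counts in sham_MG_DE and 90 and 245 counts, or 4.52 and 12.4 CPM, in tMCAO_MG_DE (5.65 ± 0.98, edgeR adjusted p = 0.0055, and 0.057 without tMCAO_MG_DE replicate 2). Mmp14 was at 7.57, 7.00, 6.28 and 6.61 CPM and then at 10.4 and 12.9 CPM (0.76 ± 0.16, edgeR adjusted p = 0.0092, and 0.13 without that library). Adamts4 was at 13.3, 13.5, 15.5 and 12.5 CPM in sham_MG_DE and at 24.8 and 23.8 CPM in tMCAO_MG_DE, where it stood just above the 19.8 to 22.3 CPM of sham_MG_CON (0.82 ± 0.19, edgeR adjusted p = 0.014). Adamtsl3 averaged 0.589 ± 0.389 and 2.27 ± 0.34 CPM (1.91 ± 0.48, edgeR adjusted p = 0.023) and Adamts10 32.0 ± 3.14 and 22.8 ± 0.12 CPM (-0.49 ± 0.12, edgeR adjusted p = 0.022). Without tMCAO_MG_DE replicate 1 or 2, the calls ended for Adamts4 (edgeR adjusted p = 0.099 and 0.086), Adamtsl3 (0.15 and 0.094) and Adamts10 (0.13 and 0.14), and the number of members called was 5 and 3. The call for Adamtsl3 also ended with only the compared groups fitted, and those for Adamtsl3 and Adamts10 with the replicate block, which added Mmp12.

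Markers of vessels were among those that moved in this comparison. Of 8 endothelial markers 4 were higher and 1 lower, with summed levels of 292 to 382 CPM in sham_MG_DE and 358 to 362 CPM in tMCAO_MG_DE. Of the astrocyte, pericyte and border macrophage markers 1 each was higher, and 2 neuronal markers and 1 oligodendrocyte marker were lower. Fibroblast and meningeal markers summed to 81.2 to 107 CPM in sham_MG_DE and 99.2 to 121 CPM in tMCAO_MG_DE, and 0 of the 8 passed by edgeR, at an adjusted p under 0.05. The part of these cells in the levels of the members was not tested.

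**Figure D3:**
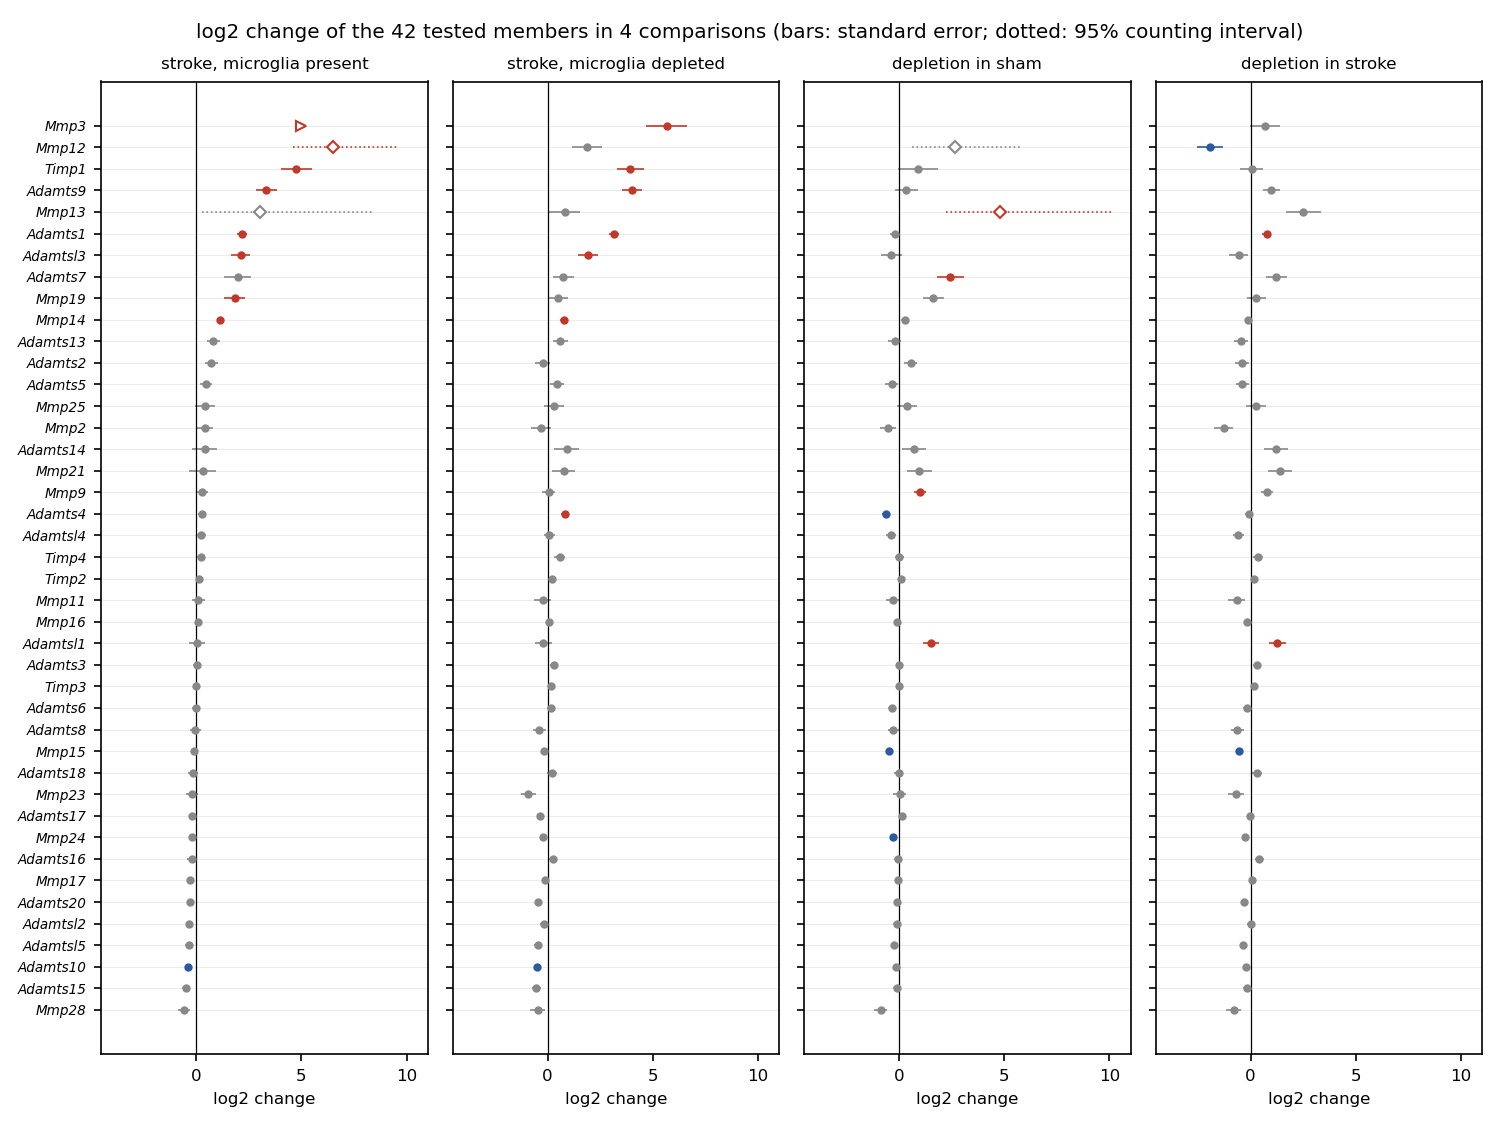
log2 change of the 42 tested members in 4 comparisons, ordered by the first; points are fitted values with standard errors, open diamonds ratios of levels with a dotted 95% counting interval where a group had 1 to 3 counts, and the open triangle a lower bound. Red marks members called higher and blue members called lower, 9, 8, 7 and 4 in the panels from left to right; Mmp3 is not drawn for depletion in sham, where both groups were at or under the floor.

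The difference between the 2 stroke responses was tested as an interaction, and no member passed. By edgeR, 0 of 42 members had an adjusted p under 0.05, against 0.0472% of all genes, and 3 had an unadjusted p under 0.05, namely Mmp12 (0.0046), Adamts1 (0.012) and Adamts4 (0.042). DESeq2 and limma also gave 0 members. Mmp12 had the smallest adjusted p, 0.33. Its level in tMCAO was 1.93, 3.79, 6.88 and 1.36 CPM with microglia and 0.854 and 0.962 CPM after depletion, while in sham_MG_DE it was 0.0541, 0.318, 0.305 and 0.285 CPM. For Mmp12 the stroke change after depletion was 1.88 ± 0.72 and did not pass (edgeR adjusted p = 0.10), although both tMCAO_MG_DE libraries were above the 4 sham_MG_DE libraries. For Adamts1 the stroke changes of 2.17 and 3.13 differed by 0.96 on the log2 scale (edgeR adjusted p = 0.38), and for Adamts4 those of 0.26 and 0.82 differed by 0.57 (edgeR adjusted p = 0.50).

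In sham mice, depletion of microglia came with changes in 7 members near the threshold. In sham_MG_DE against sham_MG_CON, 7 of 42 members passed, or 16.7% against a nearby 11.3% of all genes, 4 of them higher (6.85% of all genes) and 3 lower (4.49%). Adamtsl1, Adamts7, Mmp9 and Mmp13 were higher, and Adamts4, Mmp15 and Mmp24 were lower. The median log2 change was -0.03 over the members and 0.00 over all genes. These calls were close to the threshold, with edgeR adjusted p between 0.024 and 0.047, and none of the 7 held in all alternatives. The number called was 0 without sham_MG_CON replicate 1, 2 or 3 and without sham_MG_DE replicate 2, 1 without sham_MG_DE replicate 4, 3 without tMCAO_MG_CON replicate 4 or either tMCAO_MG_DE library, and 9 without sham_MG_DE replicate 1. It was 9 with DESeq2, 2 with limma on FPKM (Adamtsl1 and Adamts4), 1 when only the sham libraries were fitted (Adamts4) and 1 with the replicate block (Adamtsl1).

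Several of the rises were seen in 3 of the 4 depleted sham libraries. Adamtsl1, which encodes the ADAMTS-like protein punctin, was at 5.69, 6.58 and 4.29 CPM in sham_MG_CON and at 5.51, 23.8, 16.2 and 17.2 CPM in sham_MG_DE (log2 fold change 1.51 ± 0.37, edgeR adjusted p = 0.024, and 0.053 to 0.089 without any 1 of the sham_MG_CON libraries or sham_MG_DE replicate 2 or 4). Mmp13, collagenase 3, had 1, 0 and 0 counts in sham_MG_CON and 1, 14, 9 and 15 counts in sham_MG_DE, a ratio of 27.8 with a 95% counting interval of 4.70 to 1126 (edgeR adjusted p = 0.040, and 0.053 to 0.13 where 1 library of either sham group other than sham_MG_DE replicate 1, of tMCAO_MG_DE, or tMCAO_MG_CON replicate 4 was left out). Mmp9, gelatinase B, was at 2.63, 2.33 and 2.15 CPM in sham_MG_CON and at 2.43, 6.41, 3.78 and 6.10 CPM in sham_MG_DE (0.98 ± 0.28, edgeR adjusted p = 0.040, and 0.051 to 0.13 without any 1 library other than sham_MG_DE replicate 1). In these 3 genes sham_MG_DE replicate 1 lay within or next to the sham_MG_CON range and replicates 2 to 4 lay above it. That library was depleted like the others, with microglial markers at 42.1 CPM against 29.2 to 67.3 CPM in replicates 2 to 4. Its border macrophage markers, at 41.4 CPM, were the highest of the group. Its neuronal markers summed to 9019 CPM, against 7687 to 7825 CPM in replicates 2 to 4 and 8822 to 9259 CPM in sham_MG_CON. Its astrocyte markers summed to 4650 CPM, against 2077 to 3964 CPM and 4773 to 4840 CPM. Its endothelial, pericyte and fibroblast sums were also the highest of the group, and its oligodendrocyte, neutrophil and choroid plexus sums the lowest. The part of these cells in the 3 genes was not tested.

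Adamts7, a protease of cartilage oligomeric matrix protein, differed from that pattern: it was at 0.161, 0 and 0.169 CPM in sham_MG_CON and at 0.649, 1.05, 0.366 and 0.456 CPM in sham_MG_DE, without overlap (2.44 ± 0.62, edgeR adjusted p = 0.027, and 0.064 to 0.078 without any 1 of the sham_MG_CON libraries or sham_MG_DE replicate 2). The sham_MG_CON libraries held 6 Adamts7 counts in all, each at or under the floor of 3 counts, against 49 in sham_MG_DE. The size of the Adamts7 change is therefore uncertain, and it ran from 0.48 to 2.83 over the alternatives. Its call also ended with limma on FPKM and with the replicate block. Adamts4 fell in every depleted sham library, from 22.3, 21.5 and 19.8 CPM to 13.3, 13.5, 15.5 and 12.5 CPM (-0.63 ± 0.17, edgeR adjusted p = 0.032, and 0.069 to 0.099 without any 1 of the sham_MG_CON libraries or sham_MG_DE replicate 2 or 4). It is a gene with expression in oligodendrocytes, and 3 of 8 oligodendrocyte markers were lower in the same comparison, with a summed level of 2296 to 2822 CPM in sham_MG_CON and 1784 to 2319 CPM in sham_MG_DE. Their part in the Adamts4 level was not tested.

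The membrane-type MMPs Mmp15 and Mmp24 were lower with smaller changes. Mmp15 was at 17.5, 14.8 and 15.6 CPM in sham_MG_CON and at 14.1, 10.8, 12.4 and 9.06 CPM in sham_MG_DE (-0.46 ± 0.13, edgeR adjusted p = 0.043). Mmp24, which processes cadherins at synapses, was at 50.8, 50.1 and 52.5 CPM and at 48.5, 40.0, 38.4 and 41.8 CPM (-0.28 ± 0.08, edgeR adjusted p = 0.047). The groups did not overlap in either gene. For Mmp15 the call ended, at an edgeR adjusted p of 0.051 to 0.15, without any 1 library of sham_MG_CON, of sham_MG_DE other than replicate 1, of tMCAO_MG_DE, or tMCAO_MG_CON replicate 1 or 4. For Mmp24 it ended, at 0.052 to 0.14, without the same sham and tMCAO_MG_DE libraries or tMCAO_MG_CON replicate 3 or 4. Exons of Mmp24 overlap BC029722 on the opposite strand. BC029722 was lower in both depletion comparisons, with log2 changes of -0.32 in sham and -0.50 in tMCAO (edgeR adjusted p = 0.047 and 0.010), and whether counting used strand is not given, so reads of this pair cannot be told apart.

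Members that did not pass were also described. Mmp19 averaged 0.375 ± 0.187 CPM in sham_MG_CON and 1.16 ± 0.62 CPM in sham_MG_DE (1.62 ± 0.51, edgeR adjusted p = 0.056, and 0.022 without sham_MG_DE replicate 1 and 0.049 without replicate 3). Mmp12 had 2 counts in all in sham_MG_CON and 1, 7, 5 and 5 counts in sham_MG_DE, a ratio of 6.41 with a 95% counting interval of 1.54 to 57.0 (edgeR adjusted p = 0.18), again with replicate 1 lowest. Timp1 averaged 0.147 ± 0.127 and 0.299 ± 0.188 CPM (0.90 ± 0.97), Adamts1 10.7 ± 1.86 and 9.28 ± 0.81 CPM (-0.20 ± 0.23), Mmp14 5.73 ± 0.89 and 6.87 ± 0.56 CPM (0.26 ± 0.15) and Adamts9 1.62 ± 0.24 and 2.05 ± 0.73 CPM (0.33 ± 0.55). None of these 4 genes, which rose after tMCAO in both microglial states, passed for depletion alone.

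In tMCAO_MG_DE against tMCAO_MG_CON, 4 of 42 members passed, or 9.52% against 18.6% of all genes, a smaller share than the background, with 2 higher (9.36% of all genes) and 2 lower (9.26%). Adamtsl1 was at 5.90, 6.91, 4.76 and 5.04 CPM in tMCAO_MG_CON and at 10.9 and 16.5 CPM in tMCAO_MG_DE (1.27 ± 0.39, edgeR adjusted p = 0.038), so that it was higher after depletion in sham and in occluded mice and was not called for stroke in either state (log2 changes 0.04 ± 0.37 and -0.20 ± 0.39). Mmp15 was at 15.0, 13.1, 16.2 and 15.6 CPM and at 10.4 and 10.1 CPM (-0.55 ± 0.16, edgeR adjusted p = 0.030), the same direction as in sham mice. Adamts1 was higher, with a log2 change of 0.76 ± 0.23 (edgeR adjusted p = 0.038), and Mmp12 lower, with one of -1.93 ± 0.61 (edgeR adjusted p = 0.044), from the values given above, without overlap. The 2 depletion comparisons and the 2 stroke comparisons share libraries with each other, and the values are set side by side only.

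All 4 calls ended when either tMCAO_MG_DE library was left out, with edgeR adjusted p of 0.12 and 0.18 for Mmp15, 0.072 and 0.29 for Adamtsl1, 0.12 and 0.21 for Adamts1 and 0.20 and 0.20 for Mmp12 without replicates 1 and 2. The number called was then 0 without replicate 1. Without replicate 2 it was 1, namely Mmp8, with an arm of 1 library that holds nearly all counts of this gene and through which alone it passed the filter, so nothing is read from that call. It was 2 without tMCAO_MG_CON replicate 3, which ended the calls of Mmp15, Adamtsl1 and Mmp12, 1 without tMCAO_MG_CON replicate 4, which ended those of Mmp15, Adamtsl1 and Adamts1, and 7 without sham_MG_DE replicate 1. The calls of Adamts1 (edgeR adjusted p = 0.055) and Adamtsl1 (0.062) also ended without tMCAO_MG_CON replicate 1, and that of Mmp12 without tMCAO_MG_CON replicate 2 (0.070), sham_MG_CON replicate 2 or 3 or sham_MG_DE replicate 2, 3 or 4 (0.051 to 0.057). With limma on FPKM the number stayed at 4 but Mmp13 and Mmp24 stood in place of Adamtsl1 and Mmp12, and with only the tMCAO libraries fitted Adamts14 and Mmp9 stood in place of Adamts1 and Mmp12. The replicate block called 3, with Adamts9 and Mmp13 in place of Adamts1, Adamtsl1 and Mmp12, so that Mmp15 was the 1 member called in all of these fits.

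Both gelatinases and the collagenase Mmp13 lay near the threshold in the occluded brain. Mmp9 was at 2.70, 3.02, 3.00 and 2.67 CPM in tMCAO_MG_CON and at 4.57 and 5.16 CPM in tMCAO_MG_DE, without overlap (0.77 ± 0.30, edgeR adjusted p = 0.085). Mmp2, gelatinase A, was at 1.21, 2.93, 3.00 and 1.70 CPM and at 0.653 and 1.16 CPM (-1.28 ± 0.45, edgeR adjusted p = 0.063, and 0.035 without tMCAO_MG_CON replicate 1). The 2 gelatinases thus had values of opposite sign. Mmp13 had 0, 1, 7 and 4 counts in tMCAO_MG_CON and 21 and 16 counts in tMCAO_MG_DE (2.51 ± 0.83, edgeR adjusted p = 0.052, and 0.033 without tMCAO_MG_CON replicate 3 and 0.020 without sham_MG_DE replicate 1), the same direction as in sham mice. Mmp8, the collagenase of neutrophils, did not pass the filter on low counts and was called higher when no filter was used. Of its counts, 32 of the 34 in tMCAO_MG_DE were in replicate 1, where neutrophil markers summed to 13.6 CPM against 3.54 CPM in replicate 2. It had 2 and 5 counts in sham_MG_CON replicate 2 and sham_MG_DE replicate 3. Neutrophil markers summed to 35.5 and 36.6 CPM in these libraries, the highest sums of all. Mmp8 had 2 counts in sham_MG_DE replicate 4, 1 count in tMCAO_MG_CON replicate 3, and 0 in the other libraries. The part of neutrophils in its level was not tested.

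Myeloid markers moved in opposite directions with depletion. All 10 microglial markers were lower in both depletion comparisons, while 5 of 8 tested markers of border macrophages and monocytes were higher in sham and 4 of 8 in occluded mice, with summed levels of 29.6 to 41.4 CPM in sham_MG_DE and 36.7 to 48.8 CPM in tMCAO_MG_DE. Mmp12 was at 1.36 to 6.88 CPM in tMCAO_MG_CON, where microglial markers were high, and under 1 CPM in tMCAO_MG_DE. Border macrophage markers were higher in tMCAO_MG_DE than in tMCAO_MG_CON. In sham mice, where it was not called for depletion, Mmp12 was at 0 to 0.0598 CPM in sham_MG_CON, with high microglial markers. In sham_MG_DE, with low microglial and higher border macrophage markers, it was at 0.0541 to 0.318 CPM. Pericyte markers were lower in occluded depleted mice, 3 of 7, summing to 145.7 to 177.5 CPM against 185 to 254 CPM in tMCAO_MG_CON. In the same comparison 1 marker each of astrocytes, endothelial cells, fibroblasts, oligodendrocytes and neurons was lower and 1 neuronal marker higher, and in sham mice 1 astrocyte marker was higher and 1 marker each of choroid plexus and neurons lower. The part of these cells in the levels of the members was not tested.

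**Figure D4:**
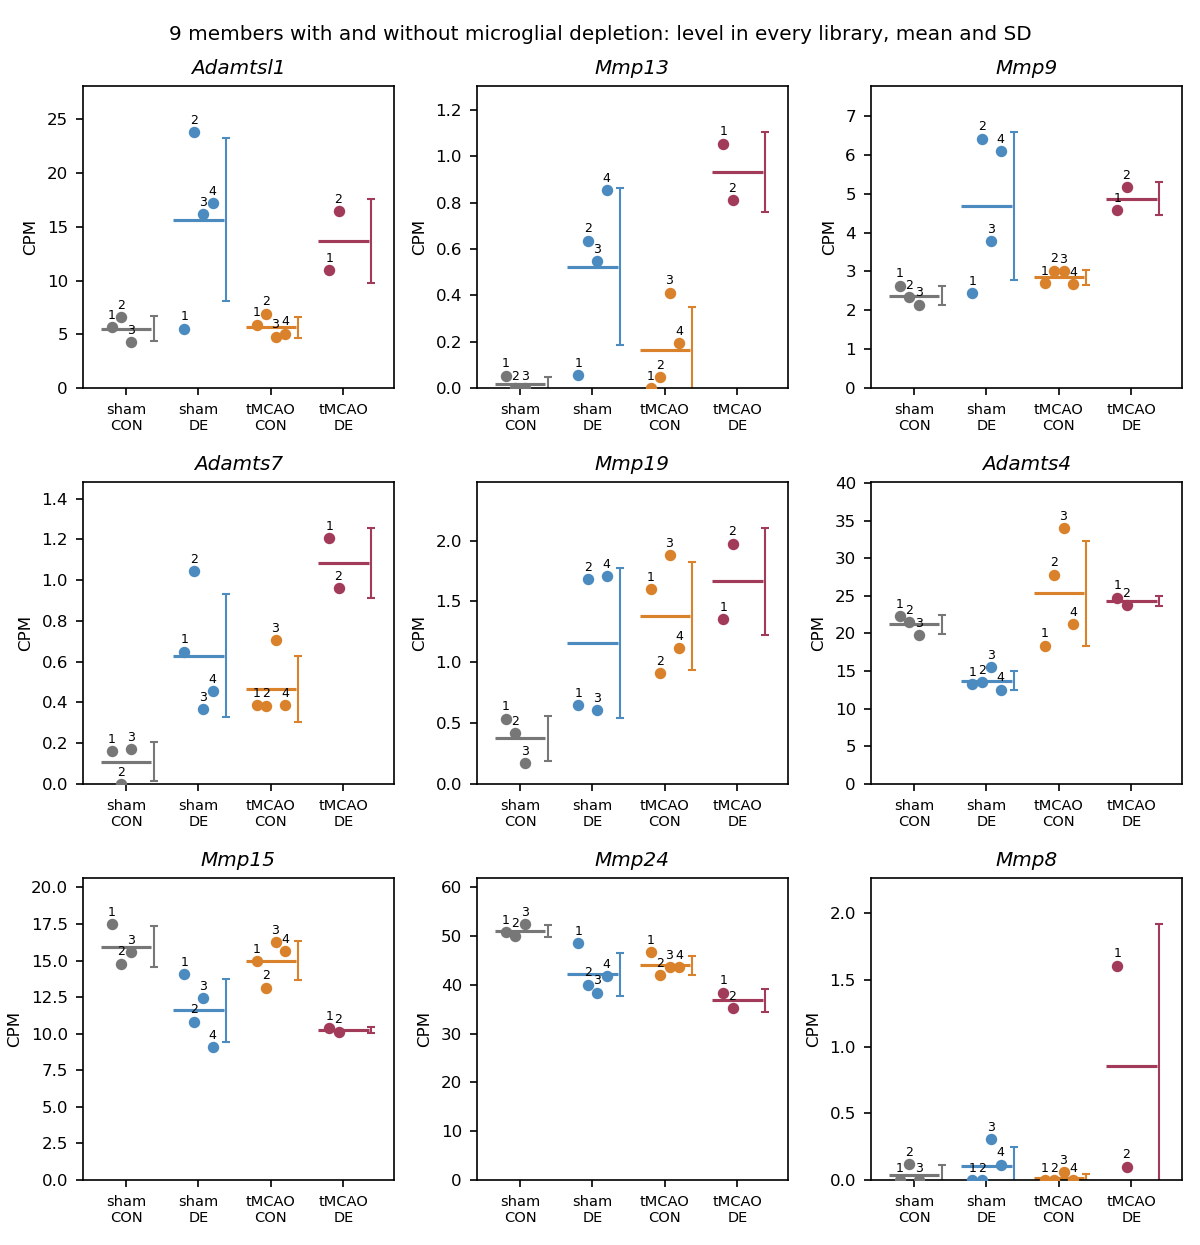
Level in CPM of 9 members in each library, labelled by replicate, with lines for the group mean and bars for the SD. Adamtsl1, Mmp13 and Mmp9 are high in sham_MG_DE replicates 2 to 4 and in both tMCAO_MG_DE libraries and low in sham_MG_DE replicate 1, Mmp15 has its lowest values in the depleted groups, and Mmp8 is high in 1 library only.

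Summed per length, the inhibitors were highest by a small margin in the 2 occluded, depleted libraries. The sums of the ADAMTS proteases overlapped between the tMCAO groups. Total TIMP level was 66.8 to 76.9 FPKM in sham_MG_CON, 72.4 to 78.6 in sham_MG_DE, 78.3 to 91.6 in tMCAO_MG_CON and 92.4 to 95.7 in tMCAO_MG_DE, with Timp2 as the main part in each. Total ADAMTS level was 18.6 to 19.8, 16.5 to 19.5, 22.2 to 32.35 and 32.29 to 33.04 FPKM, with tMCAO_MG_CON replicate 3 above tMCAO_MG_DE replicate 2, and of the ADAMTS genes Adamts1 differed most in FPKM, at 1.63 ± 0.30, 1.44 ± 0.13, 7.84 ± 2.82 and 13.04 ± 0.62 FPKM (SD). Total MMP level, dominated by Mmp17, overlapped between all 4 groups at 48.2 to 63.4 FPKM, and so did that of the ADAMTS-like genes at 2.92 to 4.36 FPKM. These sums are descriptions of RNA and were not tested. They use the FPKM of the authors, without the TMM adjustment used for CPM, so the small TIMP margin of 91.6 against 92.4 FPKM sets no order. In CPM Timp2 overlapped between the groups, at 229 to 288 in tMCAO_MG_CON and 271 to 292 in tMCAO_MG_DE. Of the 4 TIMPs, 0 were called for depletion in stroke.

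**Figure D5:**
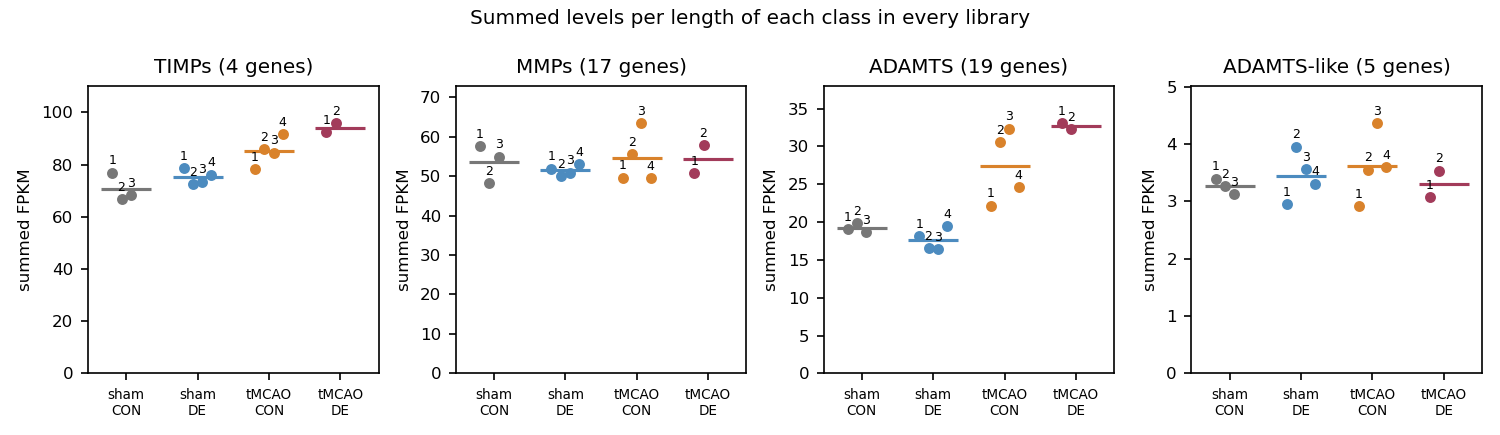
Summed FPKM of the 4 TIMPs, 17 MMPs, 19 ADAMTS and 5 ADAMTS-like genes in each library, labelled by replicate, with a line for the group mean. For TIMPs both tMCAO_MG_DE libraries, at 92.4 and 95.7 FPKM, lie above the others, with tMCAO_MG_CON replicate 4 close below at 91.6 FPKM. For MMPs the groups overlap.

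Genes that work with these proteases moved in part. The counts of each list are to be read against the shares of all genes called higher and lower, which were 5.14% and 3.31% for stroke with microglia, 6.59% and 5.84% for stroke after depletion, 6.85% and 4.49% for depletion in sham and 9.36% and 9.26% for depletion in stroke. The lists are short, so that 1 gene called in a list is near these shares. Of 11 tested genes of the plasminogen system, which activates several pro-MMPs, 4 were higher and 1 lower after tMCAO with microglia, among them the plasmin receptor subunit Anxa2 at 1.64 ± 0.32 and the neuronal inhibitor Serpini1 at -0.26 ± 0.07 (edgeR adjusted p = 0.0078 and 0.039), and 3 were higher and 1 lower after depletion. Plat, tissue plasminogen activator, was higher in tMCAO_MG_DE than in sham_MG_DE by 0.91 ± 0.11 and than in tMCAO_MG_CON by 0.86 ± 0.11 (edgeR adjusted p = 0.00043 and 0.00062). Of 14 other regulators and partners of MMPs, 5 were higher and 2 lower after tMCAO with microglia, and 4 and 1 after depletion. A2m, a broad protease trap, rose by 5.10 ± 0.44 and 3.02 ± 0.36 in the 2 stroke comparisons (edgeR adjusted p = 3.1e-05 and 0.00048), and Klk6, a brain serine protease, by 2.92 ± 0.44 and 3.07 ± 0.50 (0.0019 and 0.0028). Spock1, a testican, fell by 0.39 on the log2 scale with microglia (edgeR adjusted p = 0.0094) and Spock3 by 0.45 after depletion (0.010).

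Matrix substrates moved in part too. Of 13 perineuronal net and proteoglycan genes, 2 were higher and 1 lower in each stroke comparison, and 2 were lower in each depletion comparison, against 4.49% of all genes in sham and 9.26% in occluded mice. Bcan, brevican, a substrate of Adamts4 and Adamts5, was lower after tMCAO with microglia, at a log2 change of -0.48 ± 0.09, and after depletion in sham, at -0.36 ± 0.09 (edgeR adjusted p = 0.0064 and 0.026). Hapln1, a link protein of perineuronal nets, was lower after depletion in sham, at -0.41 ± 0.12, and in occluded mice, at -0.68 ± 0.14 (edgeR adjusted p = 0.040 and 0.0071). Of 14 basement membrane genes, 3 were higher in the first stroke comparison and 5 higher and 2 lower in the second. Col4a1, a collagen IV chain, rose by 0.76 ± 0.14 and 0.94 ± 0.15 (edgeR adjusted p = 0.0060 and 0.0026) and Nid1, nidogen 1, by 0.82 ± 0.22 and 1.11 ± 0.23 (0.034 and 0.0096). Of 7 endothelial junction genes, 1 and 4 were higher in the 2 stroke comparisons, among them Cldn5, claudin 5, after depletion (0.72 ± 0.13, edgeR adjusted p = 0.0059). In each depletion comparison 1 of the 7 was lower, namely F11r. Its log2 change was -0.99 ± 0.19 in sham and -1.04 ± 0.22 in occluded mice (edgeR adjusted p = 0.0094 and 0.0091).

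Of 11 tested genes of the ADAM family, a sister family, 3 were lower with depletion in occluded mice and 2 in sham mice. In occluded mice these were Adam10 at a log2 change of -1.001 ± 0.167, Adam17 at -0.60 ± 0.10 and Adam22 at -0.41 ± 0.11 (edgeR adjusted p = 0.0030, 0.0030 and 0.024). Adam8 and Adam17 were higher after tMCAO with microglia, by 1.14 ± 0.29 and 0.37 ± 0.09 (edgeR adjusted p = 0.027 and 0.019). Of 9 subunits of AP-1, the factor whose motif was searched above, 2 were higher in each stroke comparison and 2 after depletion in sham. Atf3 rose by 3.66 ± 0.53 and 2.59 ± 0.48 with stroke (edgeR adjusted p = 0.0015 and 0.0054), and Jun by 0.79 ± 0.19 with depletion in sham (0.021).

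Several members share sequence with other genes on the opposite strand, and their counts carry that limit. Timp1, on chromosome X from 20870166 to 20874735, lies within Syn1 with no exon overlap, while exons of Timp3 and Timp4 overlap Syn3 and Syn2. Exons also overlap between, among others, Adamts7 and Tbc1d2b, Mmp12 and Mmp1b, and Mmp19 and Tmem198b. Syn1, Syn2, Syn3, Tbc1d2b and Tmem198b were not called in any of the comparisons. Adamts1, on chromosome 16 from 85793827 to 85803113, Mmp3, on chromosome 9 from 7445822 to 7455975, and Mmp14, on chromosome 14 from 54431612 to 54445364, overlap no other annotated gene, and Adamtsl1 shares a stretch with Sh3gl2 on the same strand without exon overlap.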

How the data were processed

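The deposited data are 4 tables by the authors, 1 for each group, that list for every gene and library both counts and FPKM. The file headers name each column only as count or FPKM with the animal code. The counts were taken as read counts per gene without normalisation, and the FPKM values as scaled to gene length and depth. Cufflinks 2.1.1, Cuffdiff and mm10 are named in the submitters' processing notes. Neither aligner, counter and annotation nor use of strand was given in the sources used here.

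From the counts, genes in all 4 tables were filtered with filterByExpr, scaled by TMM and fitted as 4 group means over 13 libraries with edgeR 4.0.16 in R 4.3.3, since tMCAO_MG_DE has 2 libraries. The 5 comparisons were two-sided quasi-likelihood tests with Benjamini-Hochberg adjustment over the 16940 genes tested and a threshold of 0.05. Standard errors are the absolute log2 change over the square root of F. With totals of 16239763 to 22080367 counts, 1 count is 0.0455 to 0.0609 CPM. The common biological coefficient of variation was 15.2%. Floors (3 counts per library) and 95% exact intervals cover counting error only. Replicates all differed by more than counting noise, with a chi-square per gene of at least 10.7.

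Alternatives were DESeq2 1.42.0, DESeq2 size factors, limma 3.58.1 on log2(FPKM + 0.1), no filter, the compared groups alone, a replicate block, each library left out, and sham_MG_CON replicate 2 with sham_MG_DE replicate 3. Same-numbered libraries did not deviate together (r = -0.064 to 0.11 over 16 pairs), so numbers were not taken to pair them. Members called in any comparison and a fixed list of central members are named with values, and up to 4 called members per pathway list. Members and lists were chosen with earlier results of these data known. Mmp27 and names turned into dates (25 in the sham and 26 in the tMCAO tables) were left out of the tests. Coordinates are from GENCODE on GRCm38 and promoters from RefSeq. Of 33 member promoters, 27 had their first transcribed bases in a GENCODE transcript of the gene.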

Additional observations from a re-analysis of the deposited data

Results flagged for a closer look

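In groups of 4 libraries, 46 sets of values were searched for 1 library far from the other 3, a search that by chance picks about 1 set in 20. It picked 4. Timp1 was at 8.94 CPM in tMCAO_MG_CON replicate 3, against 2.54 to 3.16 CPM in the other tMCAO_MG_CON libraries. Adamts7 was at 0.706 CPM in the same library, against 0.384 to 0.388 CPM. Mmp12 was at 0.0541 CPM in sham_MG_DE replicate 1, against 0.285 to 0.318 CPM in the rest of that group. Adamts10 was at 27.3 CPM in sham_MG_DE replicate 2, the library with the lowest astrocyte markers, against 33.3 to 33.9 CPM. The causes were not tested.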

How the results depend on the processing

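Over 23 named members and 20 alternatives (19 for the interaction, where no fit of compared groups alone applies), 2112 of 2270 values kept their side of the threshold, 139 calls were lost, 19 were gained and 0 called changes reversed. The number of members called moved by over 1.5 times in 3 comparisons. For stroke after depletion (8 called) it ran from 3 to 10 when 1 library was left out. For depletion in sham (7 called) that range was 0 to 9, and it was 2 with limma on FPKM, 1 with the compared groups alone, 1 with the replicate block and 0 without sham_MG_CON replicate 2 and sham_MG_DE replicate 3 together. For depletion in stroke (4 called) it was 0 to 7 when 1 library was left out, and 1 without that pair, and limma and the compared groups alone each called 4 with 2 of them shared. For stroke with microglia (9 called) it was 7 to 10, and the interaction stayed at 0. The replicate block gave 7, 7, 1, 3 and 0 members in the order stroke with microglia, stroke after depletion, depletion in sham, depletion in stroke and interaction. The cause was not tested, except that leaving out a library leaves fewer samples. Depth limits Mmp3, Mmp8, Mmp12, Mmp13 and Adamts19, which had 3 or fewer counts in a whole group. Adamts7 and Timp1 were little above that, with 6 and 8 counts in sham_MG_CON.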
